A study of Mus musculus with 6 samples.

Results

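The genes described here carry the corticosteroid signal inside cells: the glucocorticoid receptor gene Nr3c1, the mineralocorticoid receptor gene Nr3c2, the 11-beta-hydroxysteroid dehydrogenase genes Hsd11b1 and Hsd11b2, the receptor co-chaperone gene Fkbp4, and the coregulator genes Ncoa1, Ncoa2 and Nrip1. They are 8 of the 27998 genes in the deposited matrices, taken by symbol and without regard to their values. C57BL/6 mice, 10 weeks old, gave single cells for droplet sequencing from 3 sites: the hypothalamic paraventricular nucleus (PVN), pituitary and adrenal. For each tissue 1 library came from unstressed control mice and 1 from mice after chronic social defeat stress for 21 days. Every library was 1 pool of 5 mice, and the labels name no transgene or drug for any group. With 1 library per group no difference between stress and control could be tested, and every interval below covers counting error only.

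Corticosterone, the glucocorticoid of mice, enters cells and binds 2 receptors that act in the nucleus: the mineralocorticoid receptor, which has high affinity, and the glucocorticoid receptor, which is occupied more as hormone rises. HSD11B1 regenerates corticosterone from its inactive 11-keto form inside the cell, while HSD11B2 inactivates it and so lets aldosterone reach the mineralocorticoid receptor in epithelia. FKBP4 (FKBP52) is a co-chaperone of HSP90 that holds the receptors ready to bind hormone, FKBP5 (FKBP51) opposes it, NCOA1 and NCOA2 (SRC-1 and TIF2/GRIP1) are coactivators, and NRIP1 (RIP140) is mainly a corepressor. In the hypothalamus and in pituitary corticotropes the glucocorticoid receptor mediates negative feedback on the release of CRH and ACTH.

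All 8 genes were found under the same Ensembl identifiers in the matrices and in the GENCODE vM21 annotation of GRCm38. Nr3c1 lies at chr18:39410545-39519421 on the minus strand, Nr3c2 at chr8:76899442-77245012 on the plus strand, Hsd11b1 at chr1:193221634-193264075 on the minus strand and Hsd11b2 at chr8:105518755-105523988 on the plus strand. Fkbp4 lies at chr6:128429735-128438677, Ncoa1 at chr12:4247362-4477182, Ncoa2 at chr1:13139105-13374083 and Nrip1 at chr16:76287400-76373827, all on the minus strand. Counted over all kept cells, UMIs numbered 34528 for Fkbp4, 12488 for Nrip1, 12123 for Nr3c1, 7423 for Ncoa1, 5040 for Ncoa2, 2888 for Hsd11b1, 1637 for Nr3c2 and 8 for Hsd11b2. These totals set how closely each gene can be followed and are not levels per transcript length.

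The 6 matrices held 2330 to 5202 barcodes each, and 2161 to 4944 remained after filtering, with medians of 5579 to 10550 UMIs (unique molecular identifiers, 1 per captured transcript) per cell. Barcode sequences shared between libraries numbered 10 to 39 per pair of libraries. Of adrenal barcodes, 130 in the control and 378 in the stress library exceeded the limit on mitochondrial UMIs. Values are given for 25 groups of cells with at least 50 cells in both libraries of a tissue: 21 classes named after fixed marker genes (written "-like") and 4 clusters that stay numbered. PVN cluster 9 and adrenal cluster 1 scored highest for neuron and macrophage markers but had a marker of another class, and none of their own, among their 10 leading genes. In adrenal clusters 2 and 5 the markers of zona fasciculata and zona glomerulosa scored highest and alike. The numbered ones are PVN cluster 9, led by Grp, Ppp1r17, Pdyn and Cck, and adrenal clusters 1 (Cxcl2, Il1b, Cxcl1), 2 (Adh1, Gpha2, Dbp) and 5 (Mt2, Cyr61, Gadd45g). Levels are UMIs of the gene per 1000000 UMIs of the class (CPM). Neighbours in an order of levels are said to overlap where the ranges between their control and stress values meet, which is the only spread over samples at hand. A level that is low in a class may reflect fewer expressing cells or less RNA per cell.

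Promoter windows from RefSeq (GRCm38.p6) were on hand for 5 of the 8 genes, 250 bases before to 50 after the start site. Of 6 motifs searched on both strands, GAANNTTC, a pair of inverted heat shock factor units, was found only in the windows of Fkbp4 and Nr3c2, in each at -151 from the start, against 7.86% of 32851 promoters. CCAAT, the NF-Y box, was found at -76 in Fkbp4, at -72 in Hsd11b1 and at -241, -188 and -12 in Nr3c2, against 37.4% of promoters. Fkbp4 is shown because its level, with those of heat shock chaperones, was higher in most stress classes below, and Nr3c2 because its window holds the same letters at the same distance. Only the bases before the first annotated exon are printed, from chr6:128438678-128438906 on the minus strand (229 bases) and chr8:76902080-76902287 on the plus strand (208 bases), with GAANNTTC and CCAAT matches in capitals.
Fkbp4: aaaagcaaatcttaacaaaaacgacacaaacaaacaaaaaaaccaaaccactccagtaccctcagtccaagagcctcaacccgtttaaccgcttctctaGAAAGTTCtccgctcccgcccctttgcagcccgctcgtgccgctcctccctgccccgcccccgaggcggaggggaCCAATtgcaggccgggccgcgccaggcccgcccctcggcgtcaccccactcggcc
Nr3c2: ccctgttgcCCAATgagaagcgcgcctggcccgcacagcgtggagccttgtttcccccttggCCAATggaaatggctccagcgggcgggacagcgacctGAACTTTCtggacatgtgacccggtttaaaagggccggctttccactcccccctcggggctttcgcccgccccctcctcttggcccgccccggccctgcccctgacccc
CCGCCC, the GC box, matched 7 times in Ncoa1 and 3 times each in Fkbp4 and Nr3c2, against 35.7% of promoters with a match. It matched 2 times in 1 window of Nrip1, and not in the other Nrip1 window or in Hsd11b1. TGTTCT, one arm of the glucocorticoid response element, matched in Ncoa1 alone, at 38 bases after the start, against 19.0% of promoters. CAAGGTCA (1.56% of promoters) and TGACGTCA (1.79%) matched in none of the windows. These matches are letters in a short window and say nothing of a factor's binding.

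Nr3c1 varied over 10-fold between cell classes, and in all 3 tissues endothelial-like cells were among the classes with the most. In the PVN the order, from control and stress values, was endothelial-like (198 and 186 CPM), oligodendrocyte precursor-like (163 and 155), tanycyte-like (139 and 142), oligodendrocyte-like (128 and 130), astrocyte-like (119 and 114), microglia-like (125 and 88.8), cluster 9 (86.2 and 84), neuron-like (64.3 and 61.3) and ependymal-like (35.6 and 41.7). Only astrocyte-like and microglia-like cells overlapped as neighbours. Neuron-like cells as 1 class thus had the second lowest level of the PVN. In PVN endothelial-like cells Nr3c1 had 193 and 216 UMIs, and in ependymal-like cells 68 and 65. Endothelial, astrocyte, tanycyte, microglia and oligodendrocyte lineage cells thus outranked neurons in both libraries, and ependymal-like cells did not.

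**Figure D1:**
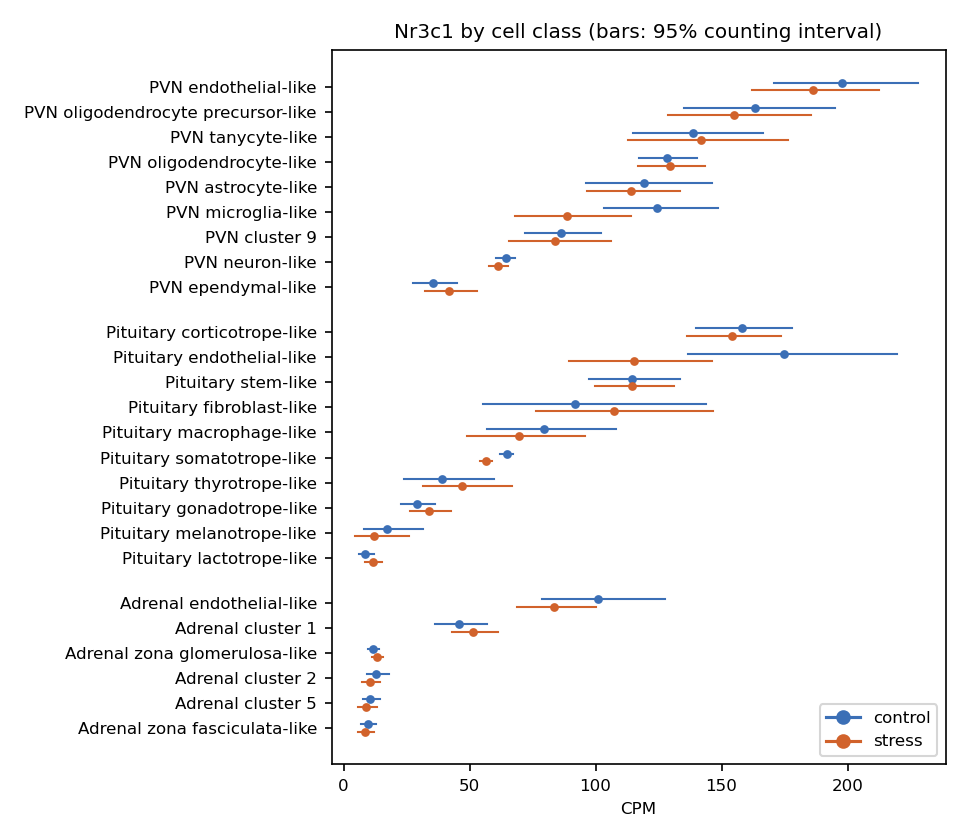
Nr3c1 level by cell class, in CPM, with control in blue and stress in orange and bars giving the 95% counting interval. Endothelial-like cells of the PVN stand highest at 198 and 186, adrenal cortex classes lie near 10, and the control and stress points of most classes lie inside each other's bars.

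Pituitary Nr3c1 was highest in corticotrope-like cells, the ACTH-producing feedback target, at 158 and 154 CPM (274 and 272 UMIs), and in endothelial-like cells at 175 and 115. Those values overlap, so the order between them is not fixed. Pituitary stem-like cells followed (114 and 115), then fibroblast-like (92 and 107), macrophage-like (79.5 and 69.6) and somatotrope-like cells (64.7 and 56.6), none of which overlapped its neighbour. Thyrotrope-like (39 and 46.9) and gonadotrope-like cells (29 and 33.8) were lower. Melanotrope-like cells, which make the same precursor Pomc as corticotropes, had 17.2 and 12 from only 10 and 6 UMIs, and lactotrope-like cells had the least, 8.66 and 11.5 (34 and 50 UMIs). The 2 Pomc-producing classes therefore stood near opposite ends of the pituitary order, with no overlap in either library. Pituitary cluster 16, led by the melanotrope markers Pcsk2 and Oacyl, stayed unnamed with 71 control and 32 stress cells. It is not part of the melanotrope-like class here or below.

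The same contrast held after each cell was thinned to 2000 UMIs. A Nr3c1 UMI was then found in 26.6% (interval 21.4% to 32.2%) of control and 25.6% (20.3% to 31.5%) of stress corticotrope-like cells, and in 57.9% and 60.2% before thinning. Melanotrope-like cells gave 1.47% and 2.86%. Lactotrope-like cells, taken as the background for free RNA because their level was lowest, gave 1.83% and 3.11%, at median depths of 7958 and 8267.5 UMIs against 6122 and 7331.5 for corticotrope-like cells. The melanotrope-like share thus lay near that of lactotrope-like cells, and the corticotrope-like share well above both. A class picked for its low level of the same gene is not an independent background. Free RNA itself was not measured, so free RNA and low expression cannot be told apart in the melanotrope-like cells.

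Adrenal Nr3c1 had its lowest levels in the steroid-producing cortex, although those many cells still held 128, 47, 37 and 41 of 517 control UMIs in zona glomerulosa-like cells, zona fasciculata-like cells and clusters 2 and 5. Endothelial-like cells had 101 and 83.5 CPM (70 and 115 UMIs), and cluster 1, led by the inflammatory genes Cxcl2 and Il1b, had 45.7 and 51.5. Zona glomerulosa-like cells, the site of aldosterone synthesis, had 11.9 and 13.4, cluster 2 13 and 10.6, cluster 5 10.6 and 9.03, and zona fasciculata-like cells, the site of corticosterone synthesis, 9.69 and 8.50 (47 and 32 UMIs). The last 4 overlapped one another in sequence and cannot be ordered. Thinned zona fasciculata-like cells had a Nr3c1 UMI in 1.13% and 1.63%, against 18.6% and 14.2% of adrenal endothelial-like cells.

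Between stress and control, Nr3c1 in neuron-like and corticotrope-like cells as whole classes differed by less than 1.5-fold. The log2 ratio of stress to control was -0.07 (interval -0.19 to 0.05, 1091 and 1063 UMIs) in neuron-like, -0.04 (-0.28 to 0.21) in corticotrope-like and -0.18 (-0.89 to 0.49) in zona fasciculata-like cells. A 1.5-fold difference corresponds to 0.58 on this scale, so the first 2 intervals exclude it and the third, from few UMIs, does not: with cells thinned to 2000 UMIs it turned to 0.49. Endothelial-like cells of the PVN gave -0.09 (-0.37 to 0.20), ependymal-like cells 0.23 (-0.29 to 0.74), lactotrope-like cells 0.40 (-0.25 to 1.08) and adrenal endothelial-like cells -0.28 (-0.71 to 0.18). In 24 classes with at least 50 Nr3c1 UMIs, 10 were higher and 14 lower in stress, with a median of -0.05.

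In 3 classes the interval lay below 0. Somatotrope-like cells, with 2193 and 2064 UMIs, gave -0.19 (-0.28 to -0.11), where the median of all genes was -0.17. PVN microglia-like cells gave -0.48 (-0.96 to -0.03, 121 and 61 UMIs), short of 1.5-fold. Pituitary endothelial-like cells, at 175 and 115 CPM (73 and 67 UMIs in 41 and 47 cells), gave -0.60 (-1.10 to -0.10), past 1.5-fold, in a class where 5.79% of all genes passed the same rule (3.27% lower). There the thinned share of cells was 24.8% in control and 26% in stress, and with cells thinned the ratio turned to 0.16. The call held in 5 of 11 settings. Markers of other cells moved within that class: the summed level of 8 fibroblast markers was 342 and 65.4 CPM (5 lower, 2 higher), that of 5 lactotrope markers 7527 and 15226 (3 higher), and that of 6 erythroid markers 16.7 and 1292 (4 higher, Alas2 among those at 0). Their part in the difference was not tested.

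Within the neuron-like cells of the PVN libraries Nr3c1 was uneven between clusters. The labels do not say which of these clusters lay within the nucleus itself. Of 10 neuron clusters with at least 50 cells in both libraries, cluster 10 (led by Six6 and Lhx1os) had the most, 90.2 and 91.6 CPM, followed by cluster 19 (Hcrt, the orexin gene) with 82.4 and 80.6. Cluster 5 (Pmch, melanin-concentrating hormone) had 47.5 and 48.5, and cluster 18 (Pomc) 46.5 and 30.6. The least was in cluster 12, led by the suprachiasmatic peptides Prok2 and Nms, with 14.5 and 19.8 (11 and 26 UMIs). None of the 10 met the rule of 1.5-fold with an interval leaving out no difference: cluster 18 was past 1.5-fold at -0.59 (interval -1.41 to 0.17), cluster 2 gave 47.9 and 70.9 (0.56, interval 0.05 to 1.10) and cluster 8 gave 62.5 and 45.6 (-0.46, -0.87 to -0.04).

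Cluster 16, led by Oxt, Sst, Avp and Crh, the peptides of neurosecretory neurons, held 110 control and 49 stress cells, 1 short of the minimum. It and the splits below were chosen after their values were seen. Nr3c1 was at 104 and 68.1 CPM there (199 and 57 UMIs, log2 ratio -0.60, interval -1.06 to -0.17). Crh codes for the peptide that starts the hormonal stress response. Within the cluster, cells with at least 5 Crh UMIs had 292 (232 to 364) in control and 143 (80.2 to 236) in stress. The control value came from 80 Nr3c1 UMIs in 20 of 21 cells, the stress value from 15 in 4 of 6 cells. At the same minimum of 5, Avp cells had 64.0 (50.6 to 79.7, 55 cells) and 22.9 (10.5 to 43.5, 13 cells), and Oxt cells 54.5 (42.0 to 69.4, 49 cells) and 0 UMIs in 11 cells, where the interval reaches 10.5. Nr3c1 in cells with Crh was thus above that in cells with Oxt in both libraries. The size of that gap moved with the minimum: at 10 UMIs the control levels were 274 for Crh and 9.64 for Oxt. A cell can belong to more than 1 of these sets. Of all neuron-like cells, 15.7% in control and 2.83% in stress had at least 5 Oxt UMIs, and 15.5% and 9.38% at least 5 Avp UMIs. The same minimum thus took unlike shares of cells in the 2 libraries, and its part in the differences was not tested. Many Crh cells lay outside the cluster, which held 21 of 35 control and 6 of 16 stress neuron-like cells with at least 5 Crh UMIs. Over all 35 and 16 of them Nr3c1 was at 168 (135 to 207) and 105 (73.2 to 146), so the control level was over 1.5 times lower than within the cluster. At the minimum of 5 the control and stress intervals met in both counts of Crh cells. They did not in the Avp cells or the Oxt cells of cluster 16. At 10 UMIs the Oxt intervals met as well, at 9.64 (4.16 to 19.0, 28 cells) and 0 UMIs in 11 cells (up to 10.5). Those of the Avp cells did not, at 49.5 (37.1 to 64.7, 46 cells) and 2.92 (0.0738 to 16.2, 10 cells). No interval of the ratio was computed for these sets, and intervals that meet do not show that levels were alike. The share of cluster 16 cells with at least 5 Crh UMIs was 19.1% in control and 12.2% in stress. The cluster's mixture of cells thus differed as well, and its part in the lower stress value was not tested.

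**Figure D2:**
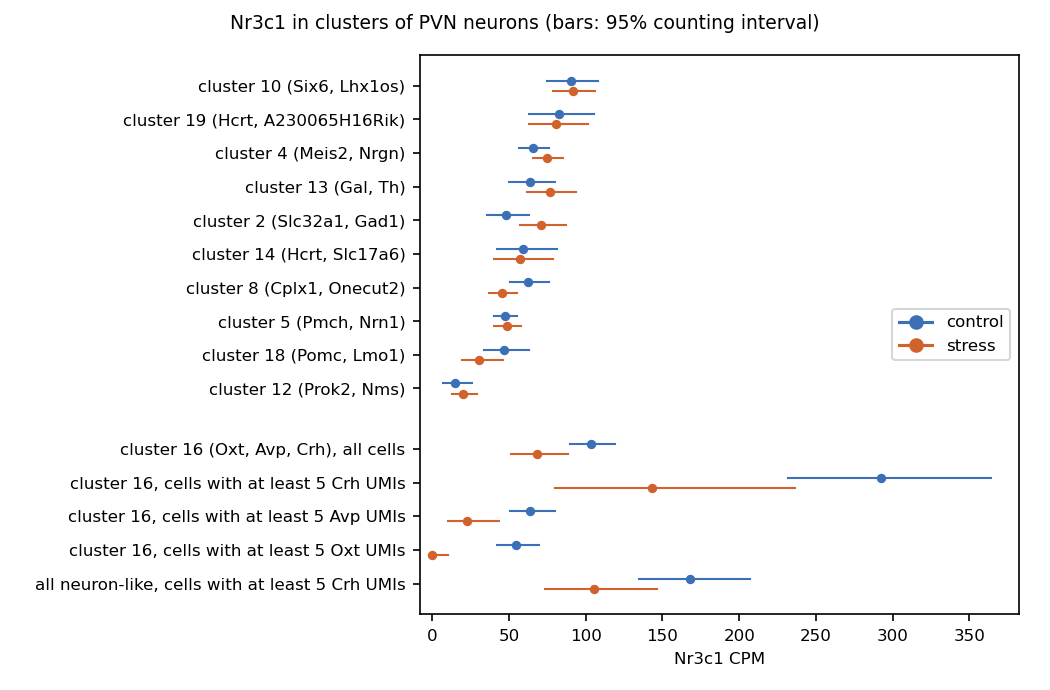
Nr3c1 in 10 clusters of neuron-like cells of the PVN libraries, in CPM with 95% counting intervals, control in blue and stress in orange. Below them are cluster 16, its cells with Crh, Avp or Oxt and all neuron-like cells with Crh. Cells with at least 5 Crh UMIs stand at 292 and 143 in cluster 16 and at 168 and 105 over all neuron-like cells, and cluster 16 cells with at least 5 Oxt UMIs at 54.5 and 0.

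Nr3c2 was sparse in every class, and only neuron-like, somatotrope-like and zona glomerulosa-like cells held at least 50 UMIs over both libraries. In the PVN astrocyte-like cells had the highest level, 22 and 21.9 CPM (17 and 29 UMIs, log2 ratio -0.03, interval -0.92 to 0.95), with no overlap with the next class. Neuron-like cells had 4.48 and 4.27 (76 and 74 UMIs, -0.07, -0.55 to 0.41), and microglia-like cells the least, 1.03 and 2.91 (1 and 2 UMIs). In the pituitary somatotrope-like cells, which make growth hormone, had the most, 14.4 and 13 (488 and 473 UMIs, -0.15, -0.34 to 0.03), and gonadotrope-like cells the least, 2.26 and 3.24 (6 and 7 UMIs). Corticotrope-like cells had 12.1 and 5.67 (21 and 10 UMIs, -1.06, -2.35 to 0.05), too few to place on either side of no difference. Adrenal zona glomerulosa-like cells had 4.45 and 3.51 (48 and 42 UMIs, -0.34, -0.98 to 0.28), overlapped by cluster 2 (4.21 and 3.25) and cluster 5 (2.08 and 3.97), so no adrenal class stood highest. Zona fasciculata-like cells had 3.09 and 1.59 (15 and 6 UMIs, -0.89, -2.61 to 0.49), and cluster 1 had 0 and 2 UMIs. All 3 classes with enough UMIs were lower in stress, with intervals that include 0.

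The balance of the receptor transcripts was followed as Nr3c2 UMIs in percent of Nr3c1 plus Nr3c2 UMIs, which does not depend on the class total and is compared between classes only. It was 6.51% in both libraries of neuron-like cells (5.17% to 8.08% and 5.14% to 8.10%). Astrocyte-like cells had 15.6% and 16.1% and ependymal-like cells 16% and 19.8%, while oligodendrocyte-like cells had 3.07% and 2.33%. In the pituitary somatotrope-like cells had 18.2% (16.8% to 19.7%) and 18.6% (17.1% to 20.2%), against 7.12% (4.46% to 10.7%) and 3.55% (1.71% to 6.42%) in corticotrope-like cells. Zona glomerulosa-like cells had the highest share drawn, 27.3% (20.8% to 34.5%) and 20.8% (15.4% to 27.0%), and adrenal endothelial-like cells 2.78% and 0.86%. Zona fasciculata-like cells, with 62 and 38 receptor UMIs, had 24.2% and 15.8%. The somatotrope-like and corticotrope-like intervals did not meet in either library. Nr3c1 is part of the total here, so a class high in it has a lower share by construction.

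**Figure D3:**
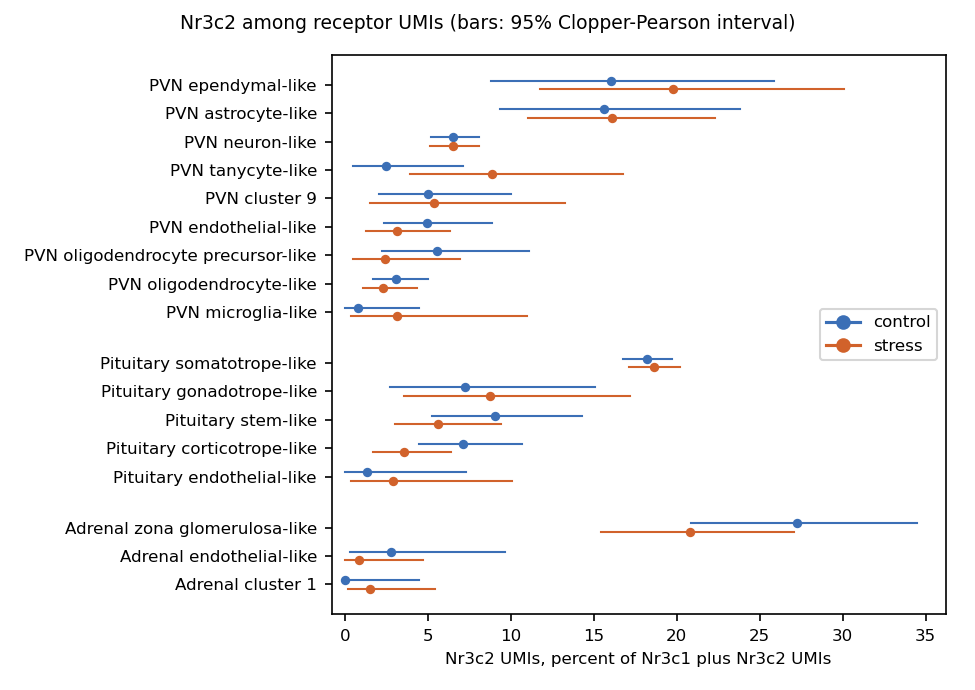
Nr3c2 UMIs in percent of Nr3c1 plus Nr3c2 UMIs, for the 17 classes with at least 50 receptor UMIs in both libraries, with 95% Clopper-Pearson intervals, control in blue and stress in orange. Zona glomerulosa-like (27.3% and 20.8%) and somatotrope-like cells (18.2% and 18.6%) stand above endothelial-like cells, which stay under 5%.

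Hsd11b1 was concentrated in a few of the 25 classes, none of them hormone-secreting. Pituitary fibroblast-like cells had 891 and 605 CPM (184 and 220 UMIs) and pituitary stem-like cells 643 and 518 (905 and 985 UMIs), with overlapping values. Next came pituitary endothelial-like cells with 23.9 and 12, and somatotrope-like cells were lowest with 1.18 and 0.82 (40 and 30 UMIs, log2 ratio -0.52, interval -1.25 to 0.20). In the PVN, astrocyte-like cells had 123 and 118 (95 and 156 UMIs, -0.07, -0.44 to 0.32) and no other class more than 3.88. Neuron-like cells had 1.06 and 1.04 (18 and 18 UMIs, -0.03, -1.06 to 1.00), and PVN microglia-like cells 0 and 1 UMI. Corticotrope-like cells had 1 and 3 UMIs. Transcripts of the activating enzyme were therefore found in astrocyte-like cells of the PVN libraries and in stem- and fibroblast-like cells of the pituitary. Their level there was over 100 times that of the neuron-like or corticotrope-like cells of the same tissue.

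Shares of thinned cells gave the same picture for Hsd11b1. A UMI was found in 62.0% (53.7% to 69.8%) of control and 54.4% (46.9% to 61.8%) of stress stem-like cells, 58.5% and 46.2% of fibroblast-like cells, and 23.0% and 20.4% of PVN astrocyte-like cells. Somatotrope-like cells, given as background, showed 0.222% and 0.163%, and neuron-like cells 0.0712% and 0.135%. Median depths were 7440 and 7636.5 UMIs in stem-like, 3676 and 3929 in fibroblast-like, 3355 and 3396 in astrocyte-like and 10792 and 11629 in somatotrope-like cells, so the classes with high shares were not the deeper ones.

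Between stress and control, Hsd11b1 in stem-like cells gave a log2 ratio of -0.31 (-0.44 to -0.18) and in fibroblast-like cells -0.56 (-0.85 to -0.27), both short of 1.5-fold. By cluster, pituitary cluster 7 of the stem-like cells had 800 and 606 CPM (-0.40, -0.55 to -0.25) and cluster 13 had 336 and 376 (0.16, -0.13 to 0.45). Cluster 15 of the fibroblast-like cells had 912 and 573 (-0.67, -0.98 to -0.36), and cluster 25 had 754 and 803 from 21 and 40 UMIs (0.08, -0.71 to 0.93), too few to set it apart from cluster 15. The difference between clusters was not tested. Cells holding both Hsd11b1 and Nr3c1 were counted after thinning. Among stem-like cells with a Hsd11b1 UMI, 15.1% (8.48% to 24.0%) in control and 33.3% (24.2% to 43.5%) in stress also had a Nr3c1 UMI, against 12.3% and 15.7% of those without. The stem-like gap was thus wider in the stress library, but the intervals overlapped in both. For cells without a Hsd11b1 UMI they were 5.08% to 23.7% in control and 8.61% to 25.3% in stress. Astrocyte-like cells gave 16.3% and 21.1% against 20.1% and 20.9%. Fibroblast-like cells gave 19.4% against 13.6% in control and, the other way, 8.33% (1.75% to 22.5%) against 21.4% (10.3% to 36.8%) in stress.

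Adrenal Hsd11b1 was scarce in the cortex: zona glomerulosa-like cells had 1 and 3 UMIs, zona fasciculata-like cells 0 and 1, and clusters 1 and 2 none. Endothelial-like cells had the highest adrenal level of the classes followed, 1.44 and 1.45 CPM from 1 and 2 UMIs. Over all kept adrenal cells there were 22 and 50 UMIs. Most of these lay in groups below the cell minimum, named here after their values were seen: cluster 13, led by Aqp1, Mgp and Acta2, with 9 and 29 UMIs, T or NK-like cells with 9 and 5, and Schwann or sustentacular-like cells with 0 and 6.

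Hsd11b2, the inactivating enzyme of aldosterone target epithelia, had 1 UMI in each PVN library, 2 in the control pituitary, none in the stress pituitary or control adrenal, and 4 in the stress adrenal. Neuron-like cells had none, which allows up to 0.217 and 0.213 CPM, and somatotrope-like cells none, which allows up to 0.109 and 0.101. Among the 25 classes the highest count was 1 UMI. No order of classes and no difference can be read from 8 UMIs, and at this depth the gene was at or under the detection limit in every class.

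**Figure D4:**
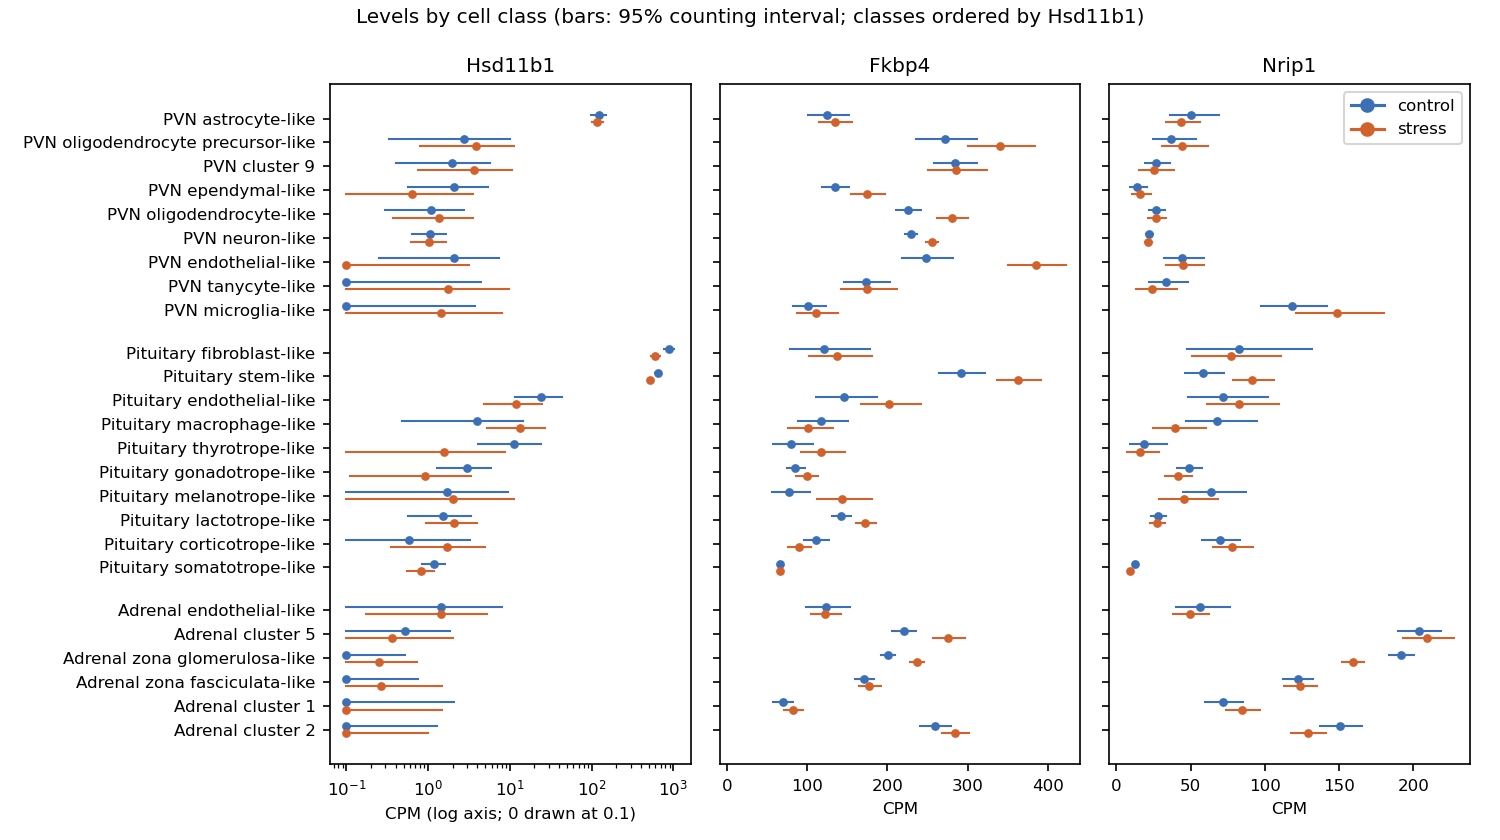
Levels of Hsd11b1 (log axis, with 0 drawn at 0.1), Fkbp4 and Nrip1 by cell class in CPM, with 95% counting intervals, control in blue and stress in orange. Hsd11b1 stands out in pituitary fibroblast-like (891 and 605) and stem-like cells (643 and 518) and PVN astrocyte-like cells (123 and 118), Fkbp4 was found in all classes, and Nrip1 is highest in adrenal cortex classes.

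Fkbp4 was measured in all 25 classes and was higher in stress in 21 of them, with a median log2 ratio of 0.23 and a range of -0.30 to 0.88. The interval lay above 0 in 11 classes and below 0 in none. Of all gene and class pairs with at least 50 UMIs, 47.5% were higher in stress, and of 1117 genes with that minimum in every class 1.79% (20 genes) were higher in 21 or more. Classes of a tissue share their library pair, so the 25 values come from 3 pairs of pools. The direction of Fkbp4 across classes therefore stood well toward the upper end of the genes measured as widely.

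By class, Fkbp4 in the PVN was highest in endothelial-like cells, 248 and 384 CPM (242 and 446 UMIs in 113 and 159 cells), followed by overlapping values in oligodendrocyte precursor-like cells (271 and 340) and cluster 9 (284 and 286). The endothelial-like ratio was 0.63 (0.40 to 0.86), past 1.5-fold, where 3.93% of genes passed (1.14% higher). In these cells the summed levels of 8 oligodendrocyte markers were 323 and 147, of 8 microglia markers 146 and 56.9 (all 8 lower for both lists) and of 6 erythroid markers 22295 and 39706 (5 higher), and their part was not tested. With the ratio in the other PVN cells subtracted, 0.46 remained and the call was lost. Neuron-like cells had 229 and 255 (3892 and 4420 UMIs, 0.15, 0.09 to 0.21), with 2.03% of all genes past 1.5-fold by the same rule and none of 6 members. PVN microglia-like cells were lowest with 101 and 111 (0.14, -0.32 to 0.58). In the neurons the ratio was small but its interval left out 0.

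Pituitary Fkbp4 was highest in stem-like cells, 292 and 363 (411 and 690 UMIs, 0.31, 0.14 to 0.49), and lowest in somatotrope-like cells, 66.8 and 65.9 (-0.02, -0.10 to 0.06). Melanotrope-like cells had 77.4 and 143 (45 and 72 UMIs in 31 and 36 cells), a ratio of 0.88 (0.33 to 1.46), in a class of 68 and 70 cells where 19.3% of all genes passed the same rule (6.28% higher). There 8 fibroblast markers summed to 143 and 23.9 (6 lower), and 5 lactotrope markers to 12463 and 7638 (4 lower), and their part was not tested. With cells thinned the ratio was 1.23, but from under 50 UMIs. Corticotrope-like cells went the other way, 111 and 90.1 (192 and 159 UMIs, -0.30, -0.61 to 0.01). Adrenal Fkbp4 was highest in cluster 2 (259 and 284, 0.13, -0.00 to 0.27), overlapping cluster 5 (221 and 276) and zona glomerulosa-like cells (200 and 237, 0.24, 0.16 to 0.32). Zona fasciculata-like cells had 171 and 177 (829 and 668 UMIs, 0.05, -0.10 to 0.20), and cluster 1 the least, 69.4 and 82.3 (0.24, -0.08 to 0.58).

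Several partners of the receptor heterocomplex had the same sign as Fkbp4. Hsp90aa1 and Hsp90ab1, the HSP90 that binds the receptors, Hspa8, a constitutive HSP70, and Dnaja1, its J-domain partner, were each higher in stress in 25 of 25 classes, with median log2 ratios of 0.58, 0.37, 0.30 and 0.50. Stip1, which bridges HSP70 and HSP90, was higher in 21 of 25 (0.37), Ptges3, the p23 co-chaperone, in 20 of 25 (0.16), and Dnajb1 in 22 of 24 (0.73). Fkbp5, the counterpart of Fkbp4 and itself a glucocorticoid-induced gene, was higher in 5 of 16 classes with enough UMIs, with a median of -0.15. Ppp5c (12 of 23, 0.00) and Hspa4 (10 of 23, -0.02) showed no preferred sign, and other HSP90 or HSP70 partners little of one: Cdc37 (15 of 25, 0.02), Bag1 (14 of 25, 0.04), St13 (17 of 25, 0.06) and Ppid (15 of 22, 0.11). Hsp90aa1, Hsp90ab1, Hspa8 and Dnaja1 were thus higher in every class, and not all of their partners were. Of the 1117 genes with enough UMIs in every class, 1.79% were higher in 21 or more classes. The share higher in all 25 was not counted, and classes of a tissue again share their library pair.

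By the 1.5-fold rule, few of the 14 listed chaperones passed. In neuron-like cells none of 14 passed (median 0.08, all genes 0.02), from Dnajb1 at 0.31 to Fkbp5 at -0.09. In corticotrope-like cells 1 of 14 passed upward, Dnajb1 at 2.97 (median 0.10, all genes -0.02, 2.57% of genes called higher). Melanotrope-like cells had 5 of 12 higher and 0 lower (median 0.45, all genes -0.01, 6.28% called higher), and stem-like cells 2 of 14 higher (median 0.35, all genes -0.01, 1.82% called higher). Zona glomerulosa-like cells had 0 higher and 1 lower of 14, Dnajb1 at -0.62 (median 0.13, 2.41% called lower). Zona fasciculata-like cells had 1 higher, Hsp90aa1 at 0.61, and 1 lower, Fkbp5 at -0.60 (median 0.13, 2.66% called higher and 4.42% lower). The list's median lay above that of all genes in each of these 6 classes.

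Nrip1 was the member most marked in the adrenal cortex. Cluster 5 had 204 and 209 CPM (785 and 580 UMIs, log2 ratio 0.04, -0.12 to 0.20), zona glomerulosa-like cells 192 and 159 (2073 and 1908 UMIs, -0.27, -0.36 to -0.18), cluster 2 151 and 129, zona fasciculata-like cells 122 and 124 (592 and 466 UMIs, 0.02, -0.16 to 0.20), cluster 1 71.7 and 84.7, and endothelial-like cells 56.2 and 49.4 (-0.20, -0.78 to 0.42), with no overlap between neighbours. In the PVN microglia-like cells led with 118 and 148 (115 and 102 UMIs, 0.33, -0.07 to 0.72), neuron-like cells had 22.2 and 21.5 (-0.04, -0.25 to 0.17), and ependymal-like cells the least, 14.1 and 16 (0.18, -0.66 to 1.02). In the pituitary fibroblast-like (82.3 and 77, -0.11, -1.02 to 0.86), endothelial-like (71.8 and 82.6), stem-like (58.3 and 91.5) and corticotrope-like cells (69.8 and 77.6, 0.15, -0.21 to 0.52) overlapped in sequence, and somatotrope-like cells had the least, 12.3 and 9.10 (416 and 332 UMIs, -0.43, -0.64 to -0.22). Cortex cells thus had high Nrip1 beside low Nr3c1, each relative to the other classes.

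The corepressor Nrip1 passed the 1.5-fold rule in pituitary stem-like cells only, at 58.3 and 91.5 CPM (82 and 174 UMIs in 52 and 95 cells, 0.65, 0.26 to 1.05), where 3.62% of genes did (1.82% higher). Cluster 7 of that class gave 0.80 (0.34 to 1.29) and cluster 13 gave 0.33 (-0.37 to 1.08), and with cells thinned the class gave 0.25. The summed level of 10 macrophage markers in these cells was 57.5 and 135 (4 higher, with Pf4, Lyve1, Cd163, F13a1 and Adgre1 at 0), that of 8 mural markers 88.1 and 18.9 (4 lower), and that of 7 markers of dividing cells 39.1 and 4.73 (all 7 lower), and their part was not tested. Nrip1 was higher in 10 and lower in 12 of 22 classes, with a median of -0.01. Macrophage-like cells of the pituitary, at 67.6 and 39.5 (34 and 21 UMIs), gave -0.76 with an interval of -1.63 to 0.05.

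The coactivator Ncoa1 was spread more evenly. PVN astrocyte-like cells had the most, 85.5 and 89.8 CPM (66 and 119 UMIs, 0.07, -0.38 to 0.53), neuron-like cells had 51.2 and 48.6 (868 and 842 UMIs, -0.08, -0.21 to 0.06), and microglia-like cells the least, 16.5 and 10.2 (16 and 7 UMIs, -0.64, -2.22 to 0.67). In the pituitary thyrotrope-like cells led with 48.2 and 36 (26 and 23 UMIs, -0.42, -1.30 to 0.44) and lactotrope-like cells were lowest with 19.4 and 15.4 (-0.33, -0.82 to 0.16). In the adrenal zona fasciculata-like cells had 30.7 and 30.3 (149 and 114 UMIs, -0.02, -0.39 to 0.34) and cluster 1 12.4 and 12.4 (-0.01, -0.84 to 0.85). Astrocyte-like cells were thus at the top of the PVN for Ncoa1, Nr3c2 and Hsd11b1.

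For Ncoa1 2 classes passed the rule, both lower in stress, out of 18 with at least 50 UMIs, of which 5 were higher and 13 lower (median -0.11). Oligodendrocyte-like cells had 21.7 and 13.7 (80 and 40 UMIs in 70 and 36 cells, -0.65, -1.25 to -0.10), where 2.31% of genes passed (1.23% lower), and cluster 0, the bulk of the class, gave -0.55 (-1.16 to 0.02). Haemoglobin RNA moved with it: 6 erythroid markers summed to 22.2 and 3489 in these cells (all 6 higher), and its part was not tested. Corticotrope-like cells had 39.8 and 25.5 (69 and 45 UMIs in 59 and 36 cells, -0.64, -1.22 to -0.08), where 6.14% passed (3.57% lower), and their cluster 4 alone gave -0.61 (-1.21 to -0.04). There 8 endothelial markers summed to 20.2 and 8.50 (7 lower), whose part was not tested. Both calls were lost with no filter on cells, with no doublets left out and with cells thinned. Tanycyte-like cells, at 55.7 and 32.9 (47 and 19 UMIs), gave -0.74 with an interval of -1.61 to 0.04.

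Ncoa2 passed the 1.5-fold rule in none of 16 classes, 5 higher and 11 lower, with a median of -0.20. Ependymal-like cells led the PVN with 34.1 and 46.2 (65 and 72 UMIs, 0.44, -0.06 to 0.95), neuron-like cells had 27.9 and 32.5 (473 and 564 UMIs, 0.22, 0.04 to 0.40), and endothelial-like cells the least, 17.4 and 16.4 (17 and 19 UMIs, -0.09, -1.11 to 0.94). In the pituitary endothelial-like cells had 23.9 and 25.8 (10 and 15 UMIs, 0.09, -1.14 to 1.42), corticotrope-like cells 20.2 and 13.6 (35 and 24 UMIs, -0.56, -1.38 to 0.22), and fibroblast-like cells the least, 4.84 and 8.25 (1 and 3 UMIs). Zona glomerulosa-like cells had 27.2 and 27.8 (0.03, -0.20 to 0.26), zona fasciculata-like cells 27.6 and 24.2 (-0.19, -0.59 to 0.20), and adrenal cluster 1 the least, 23.7 and 18.8 (-0.34, -0.97 to 0.30). Below the minimum, and singled out after its value was seen, melanotrope-like cells had 22 UMIs in 14 control cells and 3 UMIs in 3 stress cells, 37.8 and 5.98 CPM (-2.47, -5.05 to -0.93).

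Over all members, 112 of 200 pairs of member and class had at least 50 UMIs. Of these, 8 were past 1.5-fold, against 6.98% of 165194 gene and class pairs over all genes. With an interval that leaves out no difference 6 remained, 3 higher and 3 lower, against 4.90% (2.07% and 2.84%). The members therefore passed 1.5-fold about as often as any gene measured in these cells, so the single pairs named above carry little weight beyond their own values. Fkbp4 was past 1.5-fold in 2 classes, Ncoa1 in 3, Nrip1 in 2 and Nr3c1 in 1.

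**Figure D5:**
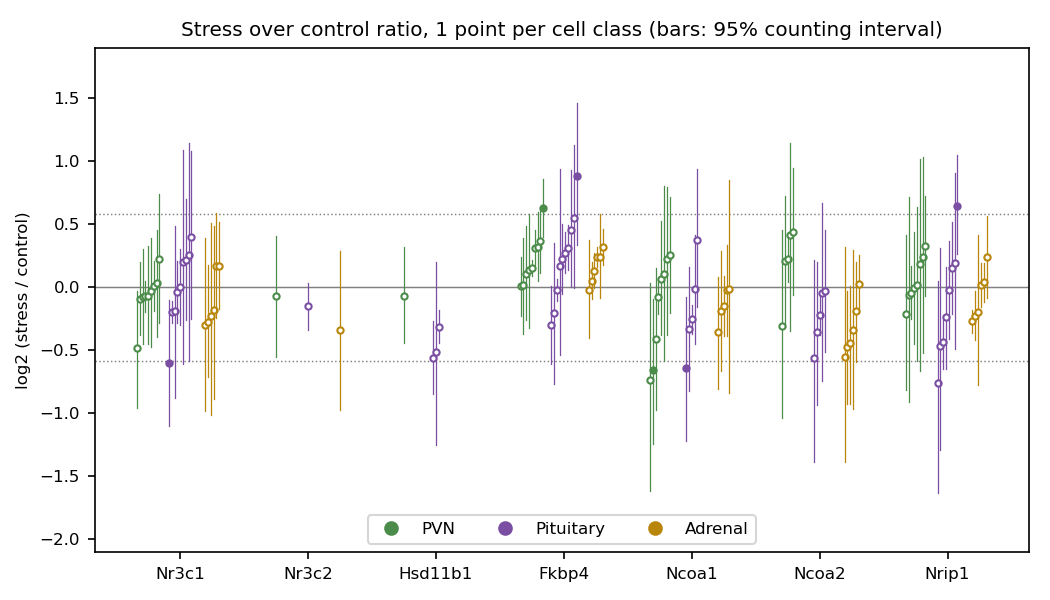
Log2 ratio of stress to control for each member and class with at least 50 UMIs, with 95% counting intervals, dotted lines at 1.5-fold and filled points where the ratio is past 1.5-fold and the interval leaves out 0. Fkbp4 points lie mostly above 0, those of the other genes fall on both sides, and 6 of 112 points are filled.

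Genes known to respond to glucocorticoids were read from a list of 20. In neuron-like cells 0 of 16 measured passed the 1.5-fold rule (median -0.01, all genes 0.02), from Arrdc2 at 0.35 to Cdkn1a at -0.45, and in corticotrope-like cells 1 of 11 passed, Ddit4 at -0.68 (median -0.08, all genes -0.02, 3.57% called lower). In zona glomerulosa-like cells 8 of 15 were lower by the rule and 0 higher, with a median of -0.61 against 0.01 over all genes, of which 2.41% were called lower. Nfkbia, the NF-kappaB inhibitor, was at 247 and 87.4 CPM (-1.50), and Zbtb16 was highest in ratio at 0.14. The mixture of clusters in this class differed as well, and its part was not tested. Cluster 4, led by Gem and Rgs4, held 293 of 743 control and 168 of 898 stress cells, and cluster 0, led by Vsnl1, 310 and 544. In zona fasciculata-like cells 7 of 14 were lower and 0 higher (median -0.58, all genes -0.02, 4.42% called lower), with Mt2, a metallothionein, at 111 and 36.1 (-1.62) and Sgk1 at 0.17. Clusters 2 and 5 had 7 of 14 lower (median -0.66, 3.14% called lower) and 5 of 14 lower (median -0.38, 3.77% called lower).

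Many genes of that list also belong to the early response to tissue handling or stimulation, and immediate-early genes were read beside it. The summed level of 13 such genes, Fos, Jun, Egr1 and Atf3 among them and listed after the values were seen, was 6922 and 3872 CPM in zona glomerulosa-like cells, 3607 and 2322 in zona fasciculata-like cells and 5713 and 3583 in cluster 2, lower for 13 of 13 in each. In cluster 5 the sums were 21205 and 20595, lower for 7 of 13, and in neuron-like cells, where no listed gene passed the rule, 3987 and 3463, lower for 12 of 13. Their part in the lower glucocorticoid-responsive genes was not tested. Somatotrope-like cells differed: 2 of 19 listed genes were higher, led by Dusp1 at 1.71, with a median of -0.21 (all genes -0.17, 0.834% called higher), beside immediate-early sums of 807 and 1917 (11 of 13 higher).

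The other lists moved little. Coactivators had 0 of 12 past the rule in neuron-like cells (Ppargc1a 0.22 to Carm1 -0.27), 0 of 9 in corticotrope-like cells (Ep300 0.39 to Med14 -0.72, short on its interval) and 0 of 11 in zona fasciculata-like cells (Crebbp 0.33 to Ncoa3 -0.14). Corepressors had 0 of 12 in neuron-like cells (Sin3a 0.26 to Tbl1xr1 -0.19), 1 of 11 in corticotrope-like cells, Ctbp2 at -0.90, and 0 of 12 in zona fasciculata-like cells (lowest Ctbp2 at -0.54). Aldosterone-target genes of epithelia had 0 of 5 in neuron-like cells and 0 of 3 in zona glomerulosa-like cells, and 1 of 7 in somatotrope-like cells, the epithelial sodium channel subunit Scnn1g at -0.98 (median -0.37, 4.51% called lower). Among genes of corticosteroid supply and other steroid receptors, zona fasciculata-like cells had 1 higher, the efflux pump gene Abcb1b at 0.74, and 1 lower, its paralogue Abcb1a at -0.71, of 5 (7.08% of all genes called). Abcb1b is also one of the markers that name this class. The mixture of clusters in it differed: cluster 8, led by Abcb1b, held 57 of 353 control and 82 of 307 stress cells. Its part in the Abcb1b ratio was not tested. Whether reads were shared between Abcb1a and Abcb1b was not tested.

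Genes whose level followed each member across the 25 classes were named by Pearson's r of log2(CPM + 1) among 14285 genes, as a description over points that share libraries and tissue. Nr3c1 was most like Pea15a (0.85), Prim1 (0.84) and Fam63b (0.83), and Nr3c2 most like the clock gene Per3 (0.82), Lrig1 (0.81) and Rab30 (0.76). Hsd11b1 was most like the mesenchymal homeobox gene Prrx2 (0.91), Cpxm2 (0.82, one of the markers that name stem-like cells) and Lypd2 (0.81). Fkbp4 was most like Fkbp8 (0.86), another FKBP family gene, Dcun1d1 (0.86) and Ppm1a (0.85). The coregulators gave Aldh5a1 (0.81), Cldn12 (0.81) and Pfkm (0.80) for Ncoa1, Nudt3 (0.86), Cep131 (0.85) and Kmt2b (0.82) for Ncoa2, and Exosc5 (0.87), Memo1 (0.85) and Mbnl1 (0.85) for Nrip1. For Hsd11b2 no likeness can be read from 8 UMIs. These names depend on the setting: on log2(CPM + 10) Nr3c2 kept Lrig1 (0.82) but not Per3 or Rab30, and Hsd11b1 kept Prrx2 (0.90) but not Cpxm2 or Lypd2. Among the 8779 genes of at least 50 CPM in a class, the 3 names stayed as a set for Fkbp4 alone.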

How the data were processed

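Single-cell gene expression was measured in 6 libraries, control and stress of PVN, pituitary and adrenal, each 1 pool of 5 mice. The authors deposited whole-number UMI counts per gene and barcode, made with Cell Ranger 2.1.1 on build mm10, with Scanpy also named, per the submitters' processing notes. Barcodes under 200 genes or over 25% mitochondrial UMIs were dropped. Doublets were scored against simulated ones, and 39 to 213 barcodes per library with the top scores were dropped. Control and stress cells of a tissue were clustered together (2000 variable genes without the members, listed genes, immediate-early and heat shock genes, 30 components, 15 neighbours, Leiden resolution 1; Python 3.11.15, scikit-learn 1.9.0, leidenalg 0.10.2). Clusters were named from marker lists. UMIs were summed per class and library and divided by the class total. Ratios had 0.5 UMI added to each sum and exact conditional binomial intervals (95%, scipy 1.17.1), levels exact Poisson intervals, and shares Clopper-Pearson intervals. A pair was called past 1.5-fold with an interval leaving out no difference and at least 50 UMIs. The calls were tested on simulated data with counting error only, which holds no spread between pools.

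Named are all members in the highest and lowest class of each tissue, in neuron-, corticotrope- and zona fasciculata-like cells and wherever called, the highest and lowest list gene, and the 3 genes most like each member; some list genes are not reported here. Members and lists were chosen with earlier results of these data known. Settings for strand and shared reads: not given in the sources used here.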

Additional observations from a re-analysis of the deposited data

How the results depend on the processing

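The count of member and class pairs past 1.5-fold, 8 of 112, was 5 with no filter on cells, 5 with no doublets left out and 18 of 138 with genes of at least 20 UMIs. With the interval rule, 6 became 3 with no filter and 3 with no doublets left out, and 4 to 7 in the other settings. Thinning each cell to 2000 UMIs turned the ratio of Nr3c1 to 0.16 in pituitary endothelial-like cells and to 0.49 in zona fasciculata-like cells; the cause was not tested. That Nr3c1 call held in 5 of 11 settings, Ncoa1 in corticotrope-like cells in 7 of 11 and in oligodendrocyte-like cells in 8 of 11, Fkbp4 in PVN endothelial-like cells in 7 of 8 and in melanotrope-like cells in 10 of 11, and Nrip1 in stem-like cells in 10 of 11. The highest class of a member stayed the same in 16 to 20 and the lowest in 11 to 20 of 21 orders, the fewest under thinning. PVN cluster 9 and adrenal clusters 1, 2 and 5 had no match when cells were clustered anew, nor did PVN endothelial-like cells under 3 settings. Subtracting the ratio in other cells of the tissue and single clusters were alternatives chosen after seeing the data. No paired analysis was possible because each group is 1 library. Nr3c2 reached 50 UMIs in 3 classes and Hsd11b2 had 8 UMIs in all, and whether depth or low expression sets this was not tested. Spread between mice is unknown throughout.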
